A study of Homo sapiens with 6 samples.

Results

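Levels of 10 mRNAs that mark epithelial-mesenchymal transition (EMT) were followed in H1299 cells treated with AVJ16: the EMT transcription factors SNAI1, SNAI2, ZEB1, ZEB2 and TWIST1, the mesenchymal genes VIM and SPARC, and the epithelial genes KRT8, KRT18 and EPCAM. The genes were chosen by name, with earlier results of these data known, and all 10 had a row among the 22004 genes of the deposited count table. H1299, an established human line of non-small cell lung carcinoma without p53, is listed as wild type and as epithelial-like, and all libraries came from this single line. Cells were kept for 48 h in 1.5 µM AVJ16, a compound made to inhibit the RNA-binding protein IGF2BP1, or in the solvent DMSO. Each group had 3 libraries of poly(A) RNA, with the letters A to C for DMSO and D to F for AVJ16. The comparison asked how AVJ16 changed the steady state of mRNAs.

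EMT is a reversible programme in which epithelial cells give up their junctions and keratin network and take on a migratory form with vimentin filaments and a different matrix. The zinc finger proteins of the SNAIL and ZEB families and the helix-loop-helix protein TWIST1 drive it. The SNAIL and ZEB proteins act largely by repressing junction genes such as CDH1, which encodes E-cadherin, through E2-box sequences in their promoters. In lung carcinoma the programme is known for its link with invasion, and many lung cancer lines hold a mixed state in which keratins and vimentin are made by the same cells.

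The sequences before RefSeq starts in the 10 genes were searched for short motifs, among them the E2-box that the SNAIL and ZEB factors read. A gene can have several starts, so a window can lie inside the gene as annotated. RefSeq starts were matched for 5 of the 10 genes (VIM, SPARC, ZEB1, ZEB2 and KRT8) and not for SNAI1, SNAI2, TWIST1, KRT18 and EPCAM. Both strands of the 250 bases before each start were searched for the E2-box CACCTG (or CAGGTG), the GC box GGGCGG, the AP-1 site TGANTCA, the TATA box TATAAA and the purine repeat GGAGGA. Among 35116 promoter windows of that length, 17.5% held the E2-box, 42.6% the GC box, 6.57% the AP-1 site, 10.7% the TATA box and 31.8% GGAGGA. VIM and SPARC are shown because they moved in opposite directions, and ZEB1 because its product binds the E2-box. Sequences are from RefSeq on GRCh38.p14, written 5′ to 3′ on the strand of the gene, with motif matches in capitals. The searched SPARC window reached to 151686916, and its last 60 bases, which other annotated transcripts of SPARC hold as exon, are not printed:
VIM, chr10:17227991-17228240, plus strand: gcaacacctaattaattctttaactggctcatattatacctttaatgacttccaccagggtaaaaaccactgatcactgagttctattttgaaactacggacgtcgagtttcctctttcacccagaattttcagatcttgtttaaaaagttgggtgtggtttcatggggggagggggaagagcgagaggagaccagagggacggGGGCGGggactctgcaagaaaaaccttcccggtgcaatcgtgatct
SPARC, chr5:151686976-151687165, minus strand: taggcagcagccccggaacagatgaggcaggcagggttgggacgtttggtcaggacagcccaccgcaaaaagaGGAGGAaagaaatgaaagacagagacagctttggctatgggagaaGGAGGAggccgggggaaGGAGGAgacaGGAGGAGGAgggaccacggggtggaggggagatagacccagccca
ZEB1 site, chr10:31318348-31318377, plus strand: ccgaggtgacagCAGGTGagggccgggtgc
ZEB1 site, chr10:31318966-31318995, plus strand: ccccaccaCACCTGaggaaaacttttccct
ZEB1 site, chr10:31319119-31319148, plus strand: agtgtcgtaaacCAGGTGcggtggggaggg

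The VIM window held 1 GC box and no other searched motif. The SPARC window held 5 matches to GGAGGA, 2 of which overlap each other in the run GGAGGAGGA, and no match to the other motifs. E2-box letters were found in 2 of the 7 windows of ZEB1, and the 3 stretches above show them. The stretches from 31318966 and 31319119 lie past the annotated start of the ZEB1 gene, 31318495. The single windows of ZEB2 and KRT8 held none of the 5 motifs, and both lie inside the annotated genes, before internal starts. A match is a match of letters only.

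The 6 libraries held 19353830 to 30253721 counts, of which the 10 genes took 0.661% to 0.841%. Library D stood apart from the other libraries. Mitochondrially encoded genes took 11.93% of its counts, against 5.13% to 6.66% in the other 5 libraries. D was the highest of the 6 libraries for 5 of the 10 genes (VIM, ZEB1, ZEB2, SNAI2 and EPCAM), as it was for 25.4% of all genes tested. It was the lowest for 1 of the 10 genes, KRT18, and for 28.5% of all genes tested. The fold change of each of the 10 genes is therefore also given without D, and whether the state of D had a part in a result was not tested. The methods of the study give biological repeats for its experiments, while no label ties a library to a culture of its own, so the spread behind the p-values may be partly technical. In bulk RNA, fewer cells with a given mRNA and less of that mRNA in each cell cannot be told apart. IGF2BP1 mRNA, which encodes the target of the compound, was at 265 ± 1.49 CPM (counts scaled to a common library size by TMM) in DMSO and 246 ± 11.7 CPM in AVJ16 (adjusted p = 0.441). Its DMSO and AVJ16 libraries did not overlap, as for 37.1% of all genes tested.

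The label of an epithelial-like cell was met in part. Per kilobase of exon, VIM stood far above the other 9 genes in DMSO cells, at 1100.1 ± 88.4 CPM per kb (mean ± SD, n = 3). The simple-epithelium keratins followed, with KRT18 at 158 ± 11.2 and KRT8 at 44.6 ± 3.27 CPM per kb. Of the transcription factors, SNAI2 had the highest level, at 10.2 ± 0.790 CPM per kb, before TWIST1 at 7.26 ± 0.317. SPARC (4.65 ± 0.0979) and ZEB1 (4.42 ± 0.216) were neighbours whose libraries overlapped, and the other neighbours in the order did not overlap. ZEB2 at 1.10 ± 0.0606, SNAI1 at 0.395 ± 0.0172 and EPCAM at 0.177 ± 0.0497 CPM per kb closed the order. In AVJ16 the order changed in 2 places, with TWIST1 at 9.96 ± 0.852 beside SNAI2 at 9.61 ± 2.61, and ZEB1 at 5.47 ± 1.69 above SPARC at 2.56 ± 0.188 CPM per kb. Of the 5 epithelial markers, KRT8 and KRT18 were thus abundant, EPCAM had 9 to 13 counts per library, CDH1 was at 1.45 ± 0.157 CPM in DMSO, and KRT19 had 0, 15 and 1 counts in A, B and C and 1, 0 and 2 in D, E and F. The mesenchymal markers VIM, CDH2 (48.9 ± 1.16 CPM in DMSO) and FN1 (37.2 ± 1.05 CPM) were all present. Of 16 markers of blood, endothelial, alveolar, airway and muscle cells, 7 had no row, among them PTPRC, CD3E and SFTPC. Those with a row summed to 3.46 to 4.29 CPM in the DMSO libraries and 4.61 to 6.73 CPM in the AVJ16 libraries, and neither of the 2 that could be tested passed (CD68, adjusted p = 0.0719, and AGER, adjusted p = 0.43). CD68 passed without D (adjusted p = 0.00185), with DESeq2 as the study ran it (0.0387) and with voom with sample weights (0.00857). AGER passed with voom alone (0.0432). Exons of other annotated genes on the same strand cover 81.6% of the exonic bases of CD68.

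AVJ16 moved the 10 genes in no single direction. VIM and TWIST1 rose, SPARC fell, and the other 7 genes did not pass (edgeR quasi-likelihood F test, Benjamini-Hochberg adjusted p under 0.05 over the 16330 genes tested). Across all genes tested, 14.6% passed, 5.87% as rises and 8.77% as falls, beside 3 of the 10 genes, with 2 rises and 1 fall. Of all genes that passed, 40.1% were higher with the scaling used (TMM) and 19.1% with library size scaling alone, under which the median log2 fold change of all genes moved from -0.01 to -0.12. The median of the 10 genes was 0.23. DMSO and AVJ16 libraries did not overlap for 4 of the 10 genes (VIM, SNAI1, TWIST1 and SPARC), and for 37.1% of all genes tested. All 10 genes had passed the filter on low counts.

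**Figure D1:**
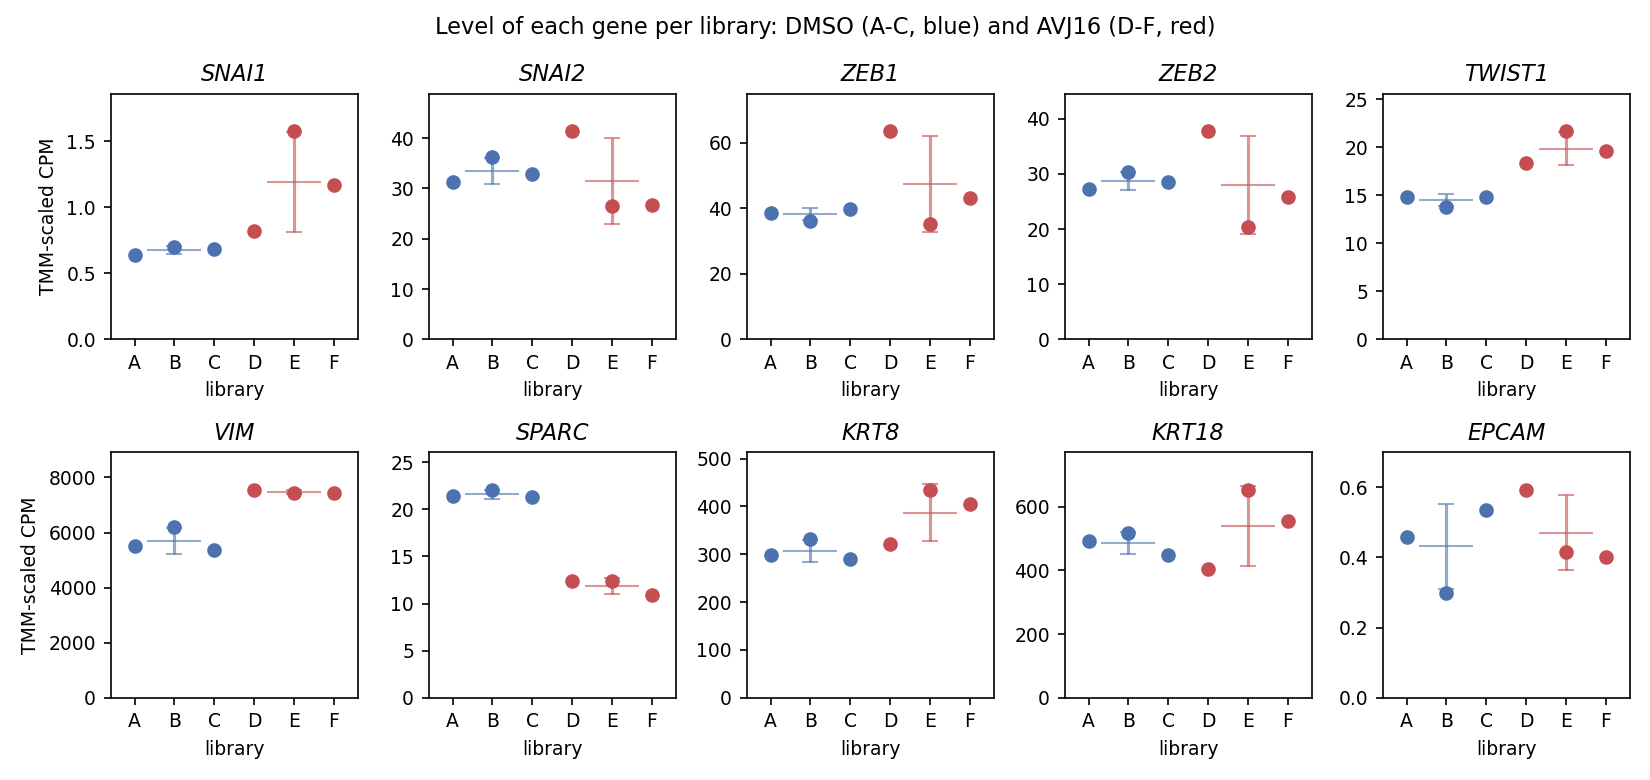
Level of each of the 10 genes in each library, in CPM (counts scaled to a common library size by TMM) on a linear axis from 0, with DMSO libraries A to C in blue and AVJ16 libraries D to F in red; horizontal lines are group means and bars are SD (n = 3). VIM and TWIST1 lie higher in all 3 AVJ16 libraries, SPARC lies lower in all 3, and D departs from E and F for ZEB1, ZEB2, SNAI2 and KRT18.

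Among the SNAIL factors, SNAI1 was scarce and SNAI2 was not, and neither passed. SNAI1 (ENSG00000124216, chromosome 20, 49982980 to 49988886, plus strand of GRCh38) encodes Snail, a repressor of CDH1 that acts early in EMT. Its levels were 0.64, 0.70 and 0.68 CPM in A, B and C and 0.82, 1.58 and 1.17 CPM in D, E and F, from 14, 21 and 14 counts in DMSO and 18, 38 and 35 in AVJ16. All 3 AVJ16 libraries were above all 3 DMSO libraries, with D the lowest of the treated ones. SNAI1 had a log2 fold change of 0.82 (95% interval 0.17 to 1.47, adjusted p = 0.0904), and 1.00 without D (adjusted p = 0.0105). SNAI2 (ENSG00000019549), which encodes the related repressor Slug, was at 31.2, 36.3 and 32.8 CPM in DMSO and at 41.4, 26.4 and 26.7 CPM in AVJ16. D was the highest of the 6 libraries and E and F were the lowest. The log2 fold change was -0.09 (95% interval -0.49 to 0.32, adjusted p = 0.785) with D and -0.33 (adjusted p = 0.0115) without it. Within a library, SNAI2 had 48.6, 52.0 and 48.0 counts for each count of SNAI1 in A, B and C, 50.4 in D, and 16.8 and 22.8 in E and F. D was within the range of the DMSO libraries for this ratio and E and F were not. The ratio was not planned, rests on the few counts of SNAI1 and is given without a test.

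The ZEB factors differed between D and the other treated libraries. ZEB1 (ENSG00000148516, chromosome 10, 31318495 to 31529814, plus strand) encodes a repressor of epithelial genes that is itself held down by miRNAs of the miR-200 family. Its levels were 38.6, 36.2 and 39.8 CPM in DMSO and 63.6, 35.2 and 43.2 CPM in AVJ16, so that D was the highest and E the lowest library of the 6. The log2 fold change was 0.31 (95% interval -0.13 to 0.75, adjusted p = 0.321) and fell to 0.04 (adjusted p = 0.782) without D. ZEB2 (ENSG00000169554, chromosome 2, 144364364 to 144521057, minus strand), its paralog with the same repressor role, was at 27.3, 30.4 and 28.6 CPM in DMSO and at 37.8, 20.3 and 25.8 CPM in AVJ16. Again D was above the DMSO libraries, whereas E and F were below them. The log2 fold change was -0.04 (95% interval -0.50 to 0.41, adjusted p = 0.911), and -0.32 (adjusted p = 0.0312) without D. The level in D was 1.62 times the mean of E and F for ZEB1, 1.64 times for ZEB2 and 1.56 times for SNAI2.

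Set against each other within a library, the ZEB mRNAs gave a ratio that D shared with E and F. ZEB1 had 1.42, 1.19 and 1.39 counts for each count of ZEB2 in A, B and C, and 1.68, 1.73 and 1.67 in D, E and F. The ratio was 1.33 ± 0.125 in DMSO and 1.70 ± 0.0331 in AVJ16, and the groups did not overlap. This ratio does not depend on how libraries are scaled. It was chosen after the values had been seen and is given without a test. Antisense exons of ZEB1-AS1 overlap 4.58% of the exonic bases of ZEB1. ZEB1-AS1 was at 10.6, 9.14 and 10.8 CPM in DMSO and 16.6, 12.2 and 15.4 CPM in AVJ16 and rose by 0.54 on the log2 scale (adjusted p = 0.0415). ZEB1-AS1 no longer passed when A, B, C or F was left out (adjusted p of up to 0.149) or when libraries were scaled by size alone (0.0832). No source used here says whether strand was used in counting, so reads of a gene and of its antisense partner may not have been separated. The host genes of the miR-200c and miR-205 transcripts (MIR200CHG and MIR205HG) had no row, and MIR34AHG, the host of miR-34a, a miRNA known to target SNAI1, fell by 0.99 (adjusted p = 0.0205). That call did not hold when A, C, E or F was left out (up to 0.0976).

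TWIST1 was the only one of the 5 transcription factors to pass. TWIST1 (ENSG00000122691, chromosome 7, 19020991 to 19117636, minus strand) encodes a helix-loop-helix factor of the embryonic mesoderm that promotes EMT in carcinoma. Its levels were 14.8, 13.8 and 14.9 CPM in A, B and C and 18.4, 21.7 and 19.6 CPM in D, E and F. The lowest AVJ16 library, D, was above the highest DMSO library. TWIST1 rose by 0.46 in log2 units (SE 0.12, 95% interval 0.20 to 0.72, adjusted p = 0.0307), from 14.5 ± 0.633 to 19.9 ± 1.70 CPM, and by 0.51 without D (adjusted p = 0.00109). TWIST1 no longer passed when any 1 library other than D was left out (adjusted p of up to 0.127) or when libraries were scaled by size alone (0.35, adjusted p = 0.0901).

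VIM, the most abundant of the 10 mRNAs, rose in every AVJ16 library above the highest DMSO library. VIM (ENSG00000026025, chromosome 10, 17228241 to 17237593, plus strand) encodes vimentin, the intermediate filament protein of mesenchymal cells, and it ranked 6 among the 16330 genes tested by mean CPM. Its levels were 5510.4, 6215 and 5356 CPM in A, B and C and 7564, 7452 and 7429 CPM in D, E and F. The AVJ16 libraries lay within a narrow range, 7482 ± 72 CPM against 5694 ± 458 CPM in DMSO, and D was close to the mean of E and F, at 1.02 times that mean. VIM rose by 0.39 in log2 units (SE 0.11, 95% interval 0.14 to 0.64, adjusted p = 0.0449), and by 0.39 without D (adjusted p = 0.00413). The adjusted p was near the threshold, and VIM no longer passed when any 1 library other than D was left out (adjusted p of up to 0.216), when libraries were scaled by size alone (0.28, adjusted p = 0.1) or by the upper quartile (adjusted p = 0.0517), or with the older quasi-likelihood method of edgeR (adjusted p = 0.0564). VIM-AS1 and a further antisense gene overlap 24.6% of the exonic bases of VIM. VIM-AS1 was at 20.8, 52.1 and 22.9 CPM in DMSO and 57.8, 33.5 and 37.6 CPM in AVJ16, with overlapping groups and a level far below that of VIM.

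SPARC moved the other way and was the most stable of the calls. SPARC (ENSG00000113140, chromosome 5, 151661096 to 151686975, minus strand) encodes osteonectin, a secreted glycoprotein that binds collagen and is made by mesenchymal cells. Its levels were 21.4, 22.1 and 21.3 CPM in A, B and C and 12.4, 12.4 and 10.9 CPM in D, E and F. The groups were far apart, and D did not depart from E and F, at 1.06 times their mean. SPARC fell by 0.86 in log2 units (SE 0.11, 95% interval -1.12 to -0.61, adjusted p = 0.00236), from 21.6 ± 0.454 to 11.9 ± 0.872 CPM, and by 0.89 without D (adjusted p = 1.38e-05). It kept this call in all settings run, including each left-out library. The mesenchymal genes VIM and SPARC thus had intervals that did not meet, one above 0 and the other below it.

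**Figure D2:**
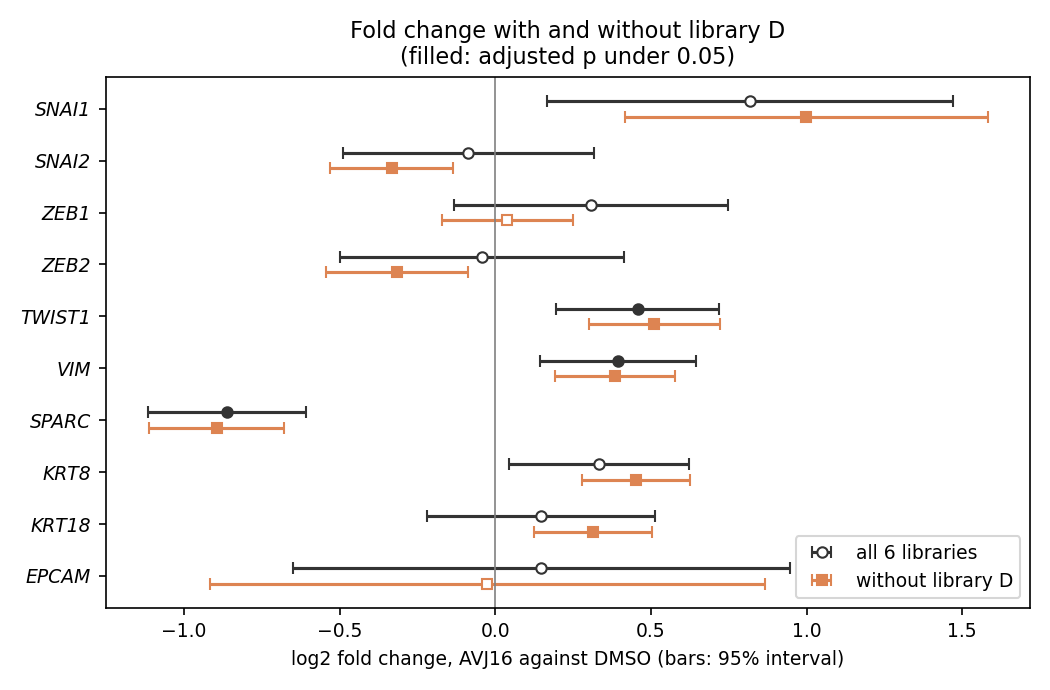
Log2 fold change of each gene in AVJ16 against DMSO (x axis) with its 95% interval, from all 6 libraries (black) and without library D (orange); filled symbols have an adjusted p under 0.05. VIM, TWIST1 and SPARC are filled in both fits, whereas SNAI1, SNAI2, ZEB2, KRT8 and KRT18 are filled only without D.

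The keratins were higher in E and F but not evenly so in D. KRT8 (ENSG00000170421, chromosome 12, 52897187 to 52949954, minus strand) encodes the type II keratin that pairs with the type I keratin of KRT18 (ENSG00000111057, chromosome 12, 52948871 to 52952906, plus strand) in the filaments of simple epithelia. KRT8 was at 299, 332 and 289 CPM in A, B and C and at 321, 435 and 404 CPM in D, E and F. E and F were above all DMSO libraries and D was among them. KRT8 had a log2 fold change of 0.33 (95% interval 0.05 to 0.62, adjusted p = 0.113), and 0.45 (adjusted p = 0.000623) without D. KRT18 was at 492, 518 and 449 CPM in DMSO and at 406, 654 and 556 CPM in AVJ16, which made D the lowest and E the highest of the 6 libraries. For KRT18 the log2 fold change was 0.15 (95% interval -0.22 to 0.51, adjusted p = 0.583) with D and 0.32 (adjusted p = 0.0124) without it. In D, KRT8 was at 0.765 times and KRT18 at 0.670 times the mean of E and F.

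Reads of the keratins can be shared with copies and with each other. The table held 13 keratin pseudogenes, 8 of KRT8 and 5 of KRT18, with 2.0% to 3.5% of the counts of KRT8 and its copies and 0.167% to 0.303% of those of KRT18. None of the 3 pseudogenes that could be tested passed. KRT8 and KRT18 lie next to each other on opposite strands, and exons of KRT8 cover 17.1% of the exon length of KRT18, while those of KRT18 cover 7.63% of that of KRT8. The ratio of KRT8 to KRT18 counts was 0.608, 0.642 and 0.644 in A, B and C and 0.791, 0.665 and 0.727 in D, E and F. The AVJ16 libraries were all above the DMSO libraries, by 0.20 on the log2 scale on average and by 0.14 without D. With the pseudogenes added to their parent genes the difference was 0.19. The ratio of VIM to the sum of both keratins was 6.97, 7.31 and 7.25 in DMSO and 10.4, 6.84 and 7.73 in AVJ16, so that E was below and D and F were above all DMSO libraries. The balance of vimentin to keratin mRNA thus overlapped between the groups, and only D was far from the rest. That balance was not a planned measure and is given without a test.

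**Figure D3:**
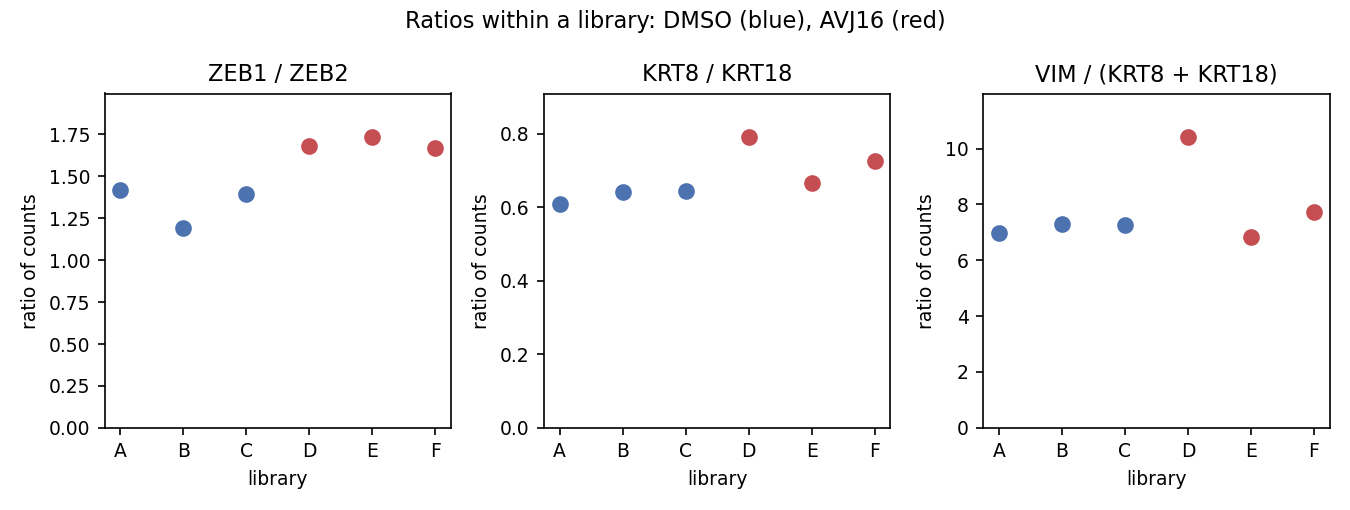
Ratios of counts within each library (y axis from 0, no unit) for ZEB1 over ZEB2, KRT8 over KRT18, and VIM over the sum of KRT8 and KRT18, with DMSO libraries A to C in blue and AVJ16 libraries D to F in red. The groups do not overlap for the first and the second ratio, and for the third D, at 10.4, lies above the other 5 libraries, which span 6.84 to 7.73.

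EPCAM had few counts in both groups. EPCAM (ENSG00000119888, chromosome 2, 47345158 to 47387601, plus strand) encodes an adhesion protein of epithelial cells. It had 10, 9 and 11 counts in A, B and C and 13, 10 and 12 in D, E and F, or 0.431 ± 0.121 CPM in DMSO and 0.470 ± 0.107 CPM in AVJ16. The libraries of both groups overlapped. The log2 fold change was 0.15 with a 95% interval of -0.65 to 0.95 (adjusted p = 0.815), and -0.03 without D (adjusted p = 0.968). At these counts the data were compatible with any change within that interval.

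Without library D, 8 of the 10 genes passed, 5 as rises (VIM, SNAI1, TWIST1, KRT8 and KRT18) and 3 as falls (SPARC, SNAI2 and ZEB2). Of all genes tested without D, 37.2% passed, 17.6% as rises and 19.6% as falls, so the number of calls increased across the whole table and not only for these genes. E and F were both above the DMSO libraries for 5 of the 10 genes and both below for 3, beside 29.6% and 30.1% of all genes.

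Genes that act with the EMT factors moved both ways, beside 14.6% called among all genes. Of 15 tested further EMT factors, 1 rose, 3 fell and 11 did not pass, with a median log2 fold change of 0.01. ETS1 rose by 0.51 (adjusted p = 0.0214), whereas MAF fell by 0.85 (adjusted p = 0.00812) and MSX1 by 0.53 (adjusted p = 0.0415). ETS1 and MSX1 each lost their call when A, B, C or F was left out (up to 0.153), MSX1 also with no filter on low counts (0.0501), and that of MAF was lost without F (adjusted p = 0.0563). Of 16 proteins that SNAIL and ZEB factors work with or are controlled by, 1 rose, 1 fell and 14 did not pass, with a median of 0.00. LOXL2, a lysyl oxidase that stabilises Snail, rose from 172 ± 8.16 to 276 ± 24.4 CPM (0.69 ± 0.10 on the log2 scale with SE, adjusted p = 0.00386) and passed in all settings run. SMARCA4, the BRG1 ATPase that binds ZEB1, fell by 0.78 (adjusted p = 0.0124), a call lost without B (adjusted p = 0.0619) or F (0.0716). Of 15 epithelial transcription and splicing factors, 5 had enough counts to be tested. Of these, KLF4 rose by 0.79 (adjusted p = 0.0325, lost when any 1 library other than D was left out, at up to 0.124, and with library size scaling alone, at 0.0584) and KLF5, GRHL1 and ESRP1 had log2 fold changes of 0.29, -0.17 and -0.07 that did not pass.

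The junction and matrix genes on which EMT acts had more falls than rises, as did all genes tested (8.77% fell and 5.87% rose). Of 23 tested genes of epithelial junctions, 0 rose, 4 fell and 19 did not pass, with a median of -0.18. CDH1, the canonical target of the SNAIL and ZEB repressors, had 28, 48 and 30 counts in A, B and C and 4, 2 and 13 in D, E and F, and its log2 fold change was -2.53 (SE 0.40, adjusted p = 0.00479), with a fall from 1.45 ± 0.157 to 0.234 ± 0.182 CPM. Its groups did not overlap, but its level was low in both. The other falls were MARVELD2, a tight junction protein, by 1.17 (adjusted p = 0.0115), JUP, which encodes plakoglobin, by 0.46 (adjusted p = 0.0287), and SPINT1, a protease inhibitor, by 1.02 (adjusted p = 0.0355). Their calls were lost in turn without 1 library, MARVELD2 without A (adjusted p = 0.0554), JUP when any 1 library other than D was left out (up to 0.11) and SPINT1 when A, B, C or F was left out (up to 0.133) and with DESeq2 as the study ran it (0.0994). Of 23 tested mesenchymal genes other than VIM and SPARC, 2 rose, 9 fell and 12 did not pass, with a median of -0.21. The fibrillar collagen COL3A1 fell by 1.46 (SE 0.13, adjusted p = 0.000755), the gelatinase MMP2 by 0.83 (SE 0.13, adjusted p = 0.00456) and the proteoglycan VCAN by 0.93 (adjusted p = 0.0109), the last a call lost without B or F (adjusted p of up to 0.0657). FN1, which encodes fibronectin, fell by 0.68 (adjusted p = 0.015). The call of FN1 was not followed through the other settings. CDH2, which encodes N-cadherin, did not pass (-0.21, adjusted p = 0.391).

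**Figure D4:**
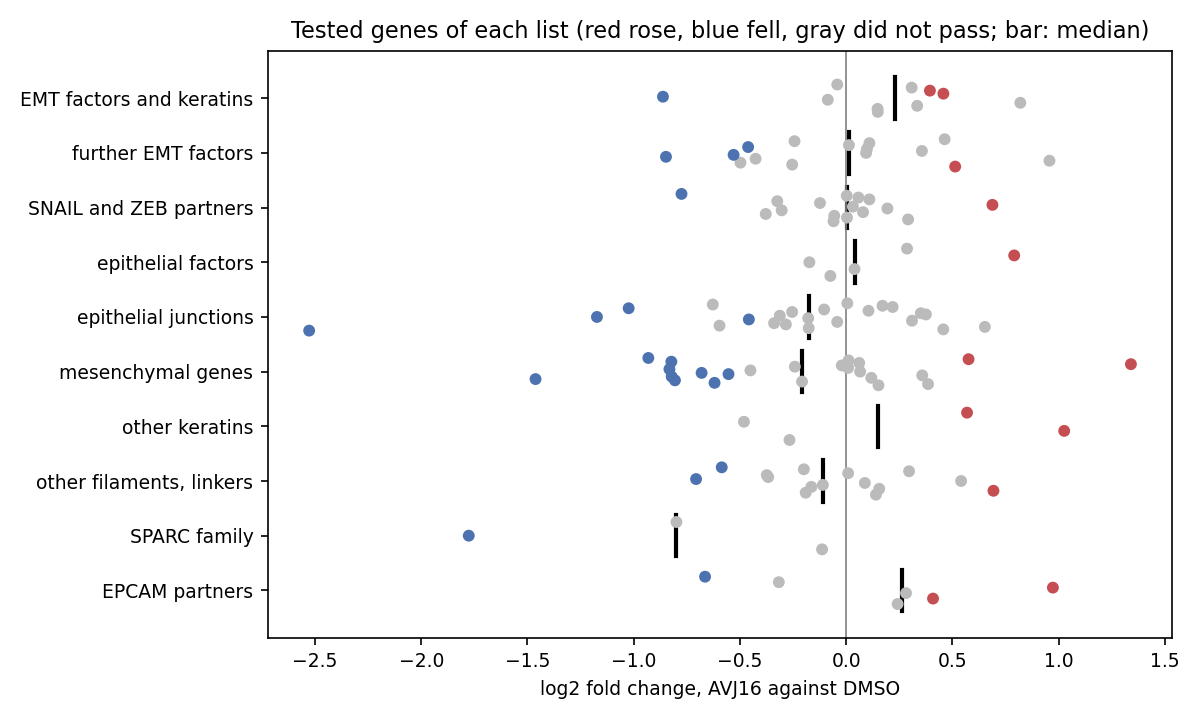
Log2 fold change in AVJ16 against DMSO (x axis) of each tested gene, by list (y axis); red genes rose and blue genes fell at an adjusted p under 0.05, gray genes did not pass, and black bars are list medians. The 23 junction genes include 4 falls and 0 rises, and the 23 further mesenchymal genes include 9 falls and 2 rises. Of all genes tested, 8.77% fell and 5.87% rose.

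Relatives of the filament proteins, of SPARC and of EPCAM were mixed, beside 14.6% called among all genes. Of 19 other keratins, 12 had no row and 4 could be tested, of which 2 rose and 2 did not pass. KRT7, which did not pass, had 239 counts in B, against 72 and 70 in A and C and 75, 100 and 95 in D, E and F. DMSO library B was also the highest of the 6 for KRT19. KRT15, a type I keratin of basal cells, rose from 7.22 ± 1.02 to 14.8 ± 0.988 CPM (1.03 ± 0.14 on the log2 scale with SE, adjusted p = 0.00289) and passed in all settings run. KRT80 rose by 0.57 (adjusted p = 0.0378, lost when any 1 library other than D was left out, at up to 0.146, and with library size scaling alone, at 0.0821). Of 15 tested filament proteins of other types and linkers, 1 rose, 2 fell and 12 did not pass. INA, a neuronal filament protein, rose by 0.69 (SE 0.11, adjusted p = 0.00444), SYNM, the vimentin-binding synemin, fell by 0.59 (adjusted p = 0.0157), and NEFL fell by 0.71 (adjusted p = 0.0412). SYNM lost its call without A, B, C or F and NEFL when any 1 library other than D was left out (adjusted p of up to 0.168), and antisense exons of NT5C2 overlap 13.9% of the exonic bases of INA. In the SPARC family, 3 of 7 genes could be tested. SMOC1 fell by 1.78 (SE 0.17, adjusted p = 0.000938), and SPOCK2 and FSTL1 had log2 fold changes of -0.80 and -0.11 that did not pass. Of 6 tested partners of EPCAM, 2 rose, 1 fell and 3 did not pass. FHL2, a LIM protein that joins the cleaved EPCAM tail, rose by 0.97 (adjusted p = 0.0126) and CD44, a hyaluronan receptor, by 0.41 (adjusted p = 0.0361), while PSEN2, a subunit of gamma-secretase, fell by 0.66 (adjusted p = 0.00963). Those calls were lost without 1 library at an adjusted p of up to 0.067 (FHL2, without B, C or F), 0.169 (CD44, without any 1 library other than D, and 0.0722 with library size scaling alone) and 0.0647 (PSEN2, without A or F).

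Without D most of these lists had more calls, as did all genes. CDH1 (-2.38, adjusted p = 0.000384), COL3A1 (-1.48, adjusted p = 2.18e-06), LOXL2 (0.76, adjusted p = 3.61e-06), KRT15 (1.01, adjusted p = 2.86e-05) and SMOC1 (-1.95, adjusted p = 2.86e-07) kept their direction and call. Rises and falls numbered 2 and 4 among 15 tested further EMT factors and 2 and 3 among 16 SNAIL and ZEB partners. Among 23 junction genes they numbered 5 and 9, and among 23 mesenchymal genes 4 and 12. They numbered 1 and 1 among 6 epithelial factors, 3 and 0 among 5 other keratins and 2 and 4 among 16 other filament proteins. Among 3 genes of the SPARC family they numbered 0 and 1, and among 6 EPCAM partners 3 and 2. Of all genes tested without D, 17.6% rose and 19.6% fell, against 5.87% and 8.77% with all 6 libraries. The lists are described by these counts and medians only.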

How the data were processed

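The authors sequenced poly(A) RNA from stranded KAPA libraries as single-end reads, trimmed them with cutadapt 2.10, aligned them to GRCh38 with TopHat2 2.1.1 and counted reads per Ensembl 99 gene with HTSeq 2.01. The deposited counts are raw and whole, and 6 columns of counts that the authors normalised with DESeq2 1.36.0 were not used. The columns carry letters that the labels do not hold, so their groups were read from the condition bar of the study's heat map. Genes summing to fewer than 10 counts had been removed before deposit.

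Counts were tested with the quasi-likelihood F test of edgeR 4.0.16 (limma 3.58.1, R 4.3.3) after filterByExpr (minimum count 10, minimum total 15) and TMM scaling, with Benjamini-Hochberg adjustment over 16330 genes, a threshold of 0.05 and a prior count of 0.125. The procedure was tested on simulated data in which no library departed from its group, so that test does not cover the departure of D. The SE of a log2 fold change is its size divided by the square root of F, and intervals were built from it. Levels are CPM, counts scaled to a common library size by TMM, and are given per kilobase of the union of GENCODE 44 exons where genes are compared. The biological coefficient of variation was 13.5%.

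The genes and lists were chosen with earlier results of these data known. Named genes are the 10 EMT genes, IGF2BP1, the fixed cell type markers and up to 4 tested genes of smallest p in each list. A few are not reported here, though each list is counted with them. Alternatives were other scalings, no filter, DESeq2 1.42.0, voom with sample weights, leaving out each library, and the thresholds by which the study counts genes (adjusted p of 0.1, log2 fold change beyond 0.5). The older quasi-likelihood method of edgeR was added after seeing the data.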

Additional observations from a re-analysis of the deposited data

How the results depend on the processing

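No paired analysis was possible because the count columns could not be tied to the replicate numbers of the labels. The call of SPARC held in every setting run. Library size scaling alone gave 523 rises and 2213 falls over all genes against 958 and 1432, 0 rises among the 10 genes against 2, and log2 fold changes of 0.28 for VIM and 0.35 for TWIST1, past the threshold no longer. Upper quartile scaling gave 1 rise among the 10 genes and lost VIM (0.39). So did the older quasi-likelihood method, with 1 rise and VIM at 0.39. The study's thresholds gave 1 rise, that of SNAI1. Voom with sample weights gave 3399 rises and 3737 falls, with 5 rises and 2 falls among the 10 genes, adding KRT8 (0.44), SNAI1 (0.92), KRT18 (0.25) and SNAI2 (-0.24), and reversing EPCAM (-0.11).

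Leaving out 1 library gave 231 to 2958 rises and 527 to 3292 falls over all genes, 0 to 5 rises and 1 to 3 falls among the 10 genes, with the most calls without D. VIM ranged from 0.35 to 0.46, TWIST1 from 0.39 to 0.51, SPARC from -0.89 to -0.78, SNAI1 from 0.58 to 1.00, KRT8 from 0.24 to 0.45 and ZEB1 from 0.04 to 0.48. Signs turned for EPCAM (-0.10 to 0.33, below 0 without B or D), KRT18 (-0.014 without E to 0.32 without D), SNAI2 (-0.33 without D to 0.044 without F, and 0.02 without E), ZEB2 (-0.32 without D to 0.14 without E, above 0 also without B and F), ESRP1 (-0.45 without D to 0.18 without E, and 0.02 without F) and KRT7 (-0.69 without A to 0.092 without B). The 40 other genes of smallest p in the lists gave 560 values under these alternatives. Of these values, 471 kept direction and call, 71 lost the call, 15 gained it and 3 reversed. IGF2BP1, FN1, CDH2 and KRT19 were not among those genes. Per kilobase of the longest transcript, levels in DMSO were 2136 for VIM, 233 for KRT18, 107 for KRT8, 11.8 for SNAI2, 8.89 for TWIST1, 6.26 for SPARC, 6.11 for ZEB1, 3.00 for ZEB2 and 0.279 for EPCAM, in the same order. The causes of these differences were not tested. Depth limits the genes with few counts, such as EPCAM, SPOCK2, CDH1, SPINT1 and SNAI1.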
